A study of Homo sapiens with 12 samples.

Results

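AP-1 is a transcription factor made of pairs of basic leucine zipper proteins from the FOS and JUN families, and many of its genes are immediate early genes, which serum and growth factors switch on within minutes without new protein synthesis. The genes examined here are the FOS family members FOS, FOSB, FOSL1 and FOSL2, the JUN family members JUN, JUNB and JUND, the related factor ATF3, the zinc finger factor EGR1 and the immediate early gene IER3. They were chosen by name from the gene column of the expression table, with earlier results of these data known, and make up 10 of the 65975 gene identifiers in it. Their symbols fill 15 entries, because 5 further identifiers share the symbol IER3, and these 5 were listed at 0 in every library and were not used.

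The study asked what the histone demethylase KDM3A does in rhabdomyosarcoma, a childhood cancer whose cells resemble skeletal muscle precursors that fail to differentiate. Poly(A) RNA was sequenced from RD cells, a fusion-negative line with an activating Ras mutation grown in DMEM, and from Rh30 cells, a fusion-positive line grown in RPMI, both with 10% serum. Each line carried either a lentiviral Scrambled control shRNA (Scramble) or a single lentiviral shRNA against KDM3A (KDM3A-sh2), and all cells, the controls included, had been selected with puromycin. There were 3 libraries in each of the 4 groups, 12 in all, and each subtype of the tumor was represented by 1 line, so that subtype, line and medium cannot be told apart.

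Values are FPKM, the fragments assigned to a gene, scaled to the length of its transcripts and to the mapped total of the library, so they can be set side by side between genes. KDM3A lay between 30.9 and 35.8 FPKM in RD Scramble and between 11.2 and 13.4 in RD KDM3A-sh2, and between 27.8 and 32.0 in Rh30 Scramble and between 13.2 and 15.4 in Rh30 KDM3A-sh2. It was lower by the labels in both lines, with log2 fold changes of -1.39 ± 0.08 (SE, n = 3 and 3, limma, adjusted p = 5.002e-05) in RD and -1.02 ± 0.08 (adjusted p = 0.0003481) in Rh30. Of 6 muscle lineage genes, MYOD1 (112.8 to 930.5 FPKM as group means), MYOG, DES and CHRNA1 were high in all groups, MYH3 was high in RD alone, and MYF5 was at or near 0 throughout. Of 9 epithelial, immune and endothelial markers, 7 stayed below 1 FPKM, the exceptions being CD68 (15.4 and 22.7 FPKM in RD Scramble and KDM3A-sh2) and EPCAM (4.63 and 6.03 FPKM in Rh30 Scramble and KDM3A-sh2), and their part in the results was not tested. Read totals are not in the table, but the steps between low values gave relative depths of 0.846 to 1.221, lowest in RD KDM3A-sh2, and 17473 to 17983 genes reached 1 FPKM in a library.

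As background, FOS proteins cannot pair with one another and need a JUN partner, whereas JUN proteins also pair among themselves. FOS and FOSB carry strong activation domains, FOSL1 (Fra-1) and FOSL2 (Fra-2) lack them, JUN is a strong activator, and JUNB and JUND are weaker partners that often restrain it. Ras and the kinase ERK feed this network by phosphorylating ternary complex factors, which sit with SRF on CArG boxes in immediate early promoters, by activating kinases of CREB at cyclic AMP response elements (CRE), and by stabilising FOSL1 protein. ATF3 is induced by stress and damage, EGR1 carries the mitogenic signal to its own target genes, and IER3 acts in survival signaling.

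Promoter sequences of 8 of the 10 genes were found among RefSeq promoter windows (GRCh38.p14, 250 bases before to 50 bases after the gene start). The CRE core TGACGT, searched on both strands, lay in the windows of 5 of them (FOS, FOSB, FOSL2, JUND and EGR1), against 8.0% of all 35116 windows. The full palindrome TGACGTCA gives 1 match on each strand over overlapping bases, as in JUND. The matches below are shown because this element recurred among these promoters. Distances are counted from the start used by the promoter window, which can differ from the gene positions given below, as for FOSL2. Each line is written 5′ to 3′ along the gene, with the match in capitals, and ACGTCA is the core read on the opposite strand.
FOS, first base of the match at -64 from the start, chr14:75278752-75278781, plus strand: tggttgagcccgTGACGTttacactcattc
FOSB, -60, chr19:45467924-45467953, plus strand: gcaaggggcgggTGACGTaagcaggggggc
FOSL2, -66, chr2:28392780-28392809, plus strand: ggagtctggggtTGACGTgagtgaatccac
JUND, -200, chr19:18281805-18281834, minus strand: cggccgcccccaTGACGTcaacccacaagg
JUND, -87, chr19:18281692-18281721, minus strand: tgcaaatgagcgACGTCAcccgcacccaat
EGR1, -136, chr5:138465331-138465360, plus strand: atggggggcttcACGTCActccgggtcctc

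EGR1 held in addition 2 CArG boxes, at -105 and -83 from its start, followed by a second CRE core at -67. A CArG box was found in 1.3% of all windows and in no other window of the 8 genes. The windows reach only 250 bases before the start, and boxes farther upstream were not looked for. The stretch is printed because it carries the SRF element and the CRE core side by side, the CArG boxes and the core in capitals.
EGR1, chr5:138465369-138465422, plus strand: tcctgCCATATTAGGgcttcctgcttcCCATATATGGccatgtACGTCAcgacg

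The AP-1 site itself, TGANTCA on both strands, was found in 7.7% of all windows and in 1 of the 8 genes, FOSL2, at position 5 after the start. It is shown because it is the letters that FOS and JUN dimers bind. These matches describe letters only, and binding was not measured here.
FOSL2, chr2:28392851-28392879, plus strand: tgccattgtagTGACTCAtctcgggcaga

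The 2 control lines drew on different AP-1 genes. In RD Scramble the FOS family was carried by FOSL1, at 134.5 ± 11.7 FPKM (SD, n = 3), and in Rh30 Scramble FOSL1 was at 10.9 ± 0.92 FPKM, while JUN was at 72.2 ± 1.44 FPKM in RD Scramble and at 171.9 ± 11.3 FPKM in Rh30 Scramble. Between the Scramble groups all 10 genes passed the test, 8 of them lower (39.6% of all genes tested) and 2 higher (34.9%) in Rh30, and the groups did not overlap for any of them. Of the 18367 genes tested in that comparison 74.5% passed, so a line difference in a given gene was the usual outcome, and 77.5% of genes had groups that did not overlap. JUNB lost its call without any of the RD Scramble replicates 1, 2 and 3 or without Rh30 Scramble replicate 3, and JUND without RD Scramble replicate 1 or 2 (adjusted p from 0.06666 to 0.1026). FOSB entered this comparison through RD, where it is the higher, and so was bound to differ.

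The mRNA make-up of the FOS and JUN families, taken as shares of the summed FPKM of their 7 genes, shows this plainly. In RD Scramble FOSL1 made up 36.9% of the sum, JUND 21.4%, JUN 19.8% and FOSL2 12.6%. In Rh30 Scramble JUN made up 56.4%, JUND 20.5%, FOSL2 11.1% and FOSL1 3.57%. FOS was 1.48% in RD and 0.581% in Rh30, and FOSB was 0.465% and 0.240%, so the archetypal FOS genes were minor transcripts in both lines as sampled. Within the FOS family alone FOSL1 gave 71.7% in RD Scramble and 23.1% in Rh30 Scramble, where FOSL2 was the main member with 71.6%.

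**Figure D1:**
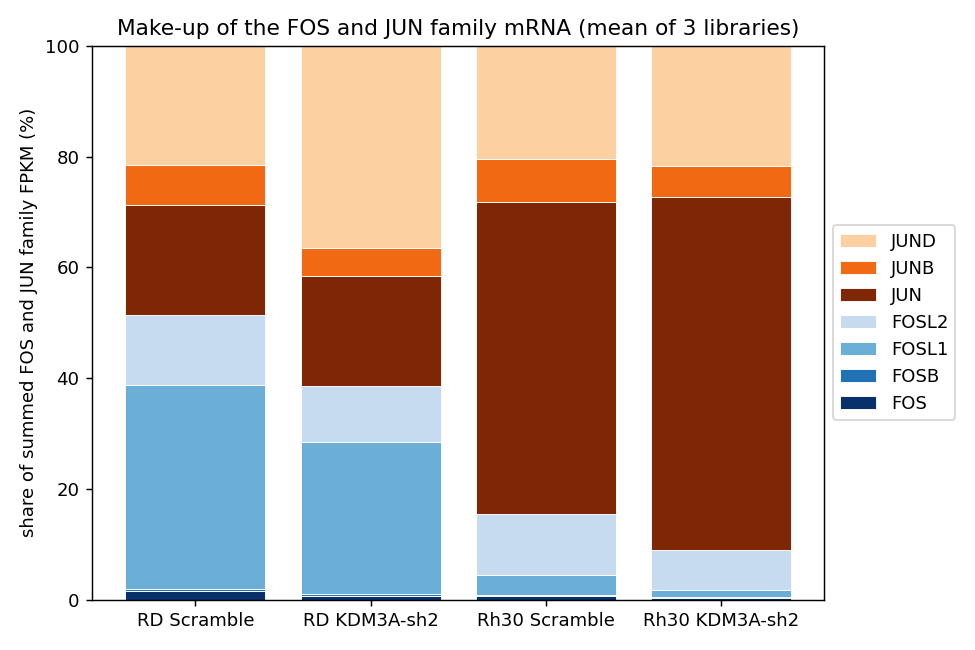
Share of the summed FPKM of the 7 FOS and JUN family genes held by each gene (vertical axis, %, mean of 3 libraries) in the 4 groups. FOSL1 holds 36.9% in RD Scramble and 27.4% in RD KDM3A-sh2, JUN holds 56.4% in Rh30 Scramble and 63.8% in Rh30 KDM3A-sh2, and JUND goes from 21.4% to 36.5% in RD.

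With KDM3A-sh2 FOSL1, FOSL2, JUNB and EGR1 were lower in both lines, while other genes passed in 1 line only or in opposite directions. The Rh30 call was lost in 9 of 16 alternative fits for JUNB and in 8 of 15 for EGR1, fits without 1 library included. In RD, FOS fell the most, FOSL1, FOSL2, JUNB and EGR1 fell as well, and JUND, ATF3 and IER3 rose. In Rh30, FOSL1 fell the most, FOSL2, JUNB, EGR1 and IER3 fell, and JUN rose. In RD 8 of the 10 genes passed the test (3 higher and 5 lower), against 41.1% of the 18001 genes tested, of which 21.6% were higher and 19.5% lower. In Rh30 6 of the 9 genes tested passed (1 higher and 5 lower), against 28.5% of 17811 genes, with 15.3% higher and 13.2% lower, and the Rh30 count was 4 to 5 with 1 library left out. Without KDM3A-sh2 replicate 1 the genes called in Rh30 numbered 3216 in place of 5069. The median log2 fold change of the genes examined was -0.268 in RD and -0.343 in Rh30, beside 0.00666 and 0.0313 for all genes tested. Groups did not overlap for 8 genes in RD (53.4% of all genes) and for 7 in Rh30 (45.8% of all genes). Since these are bulk libraries, fewer cells making a transcript and less of it per cell cannot be told apart. No source tells if the 3 libraries per group were separate cultures, so p-values measure only the spread between these libraries. The deposited names of the Rh30 Scramble libraries all end in the same number, unlike those of the other groups, while their titles number them as replicates. An exact permutation test of 3 against 3 cannot go below p = 0.1, and the adjusted p-values are those of limma fitted across all genes on log2(FPKM + 1), a scale that understates the change of low genes.

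**Figure D2:**
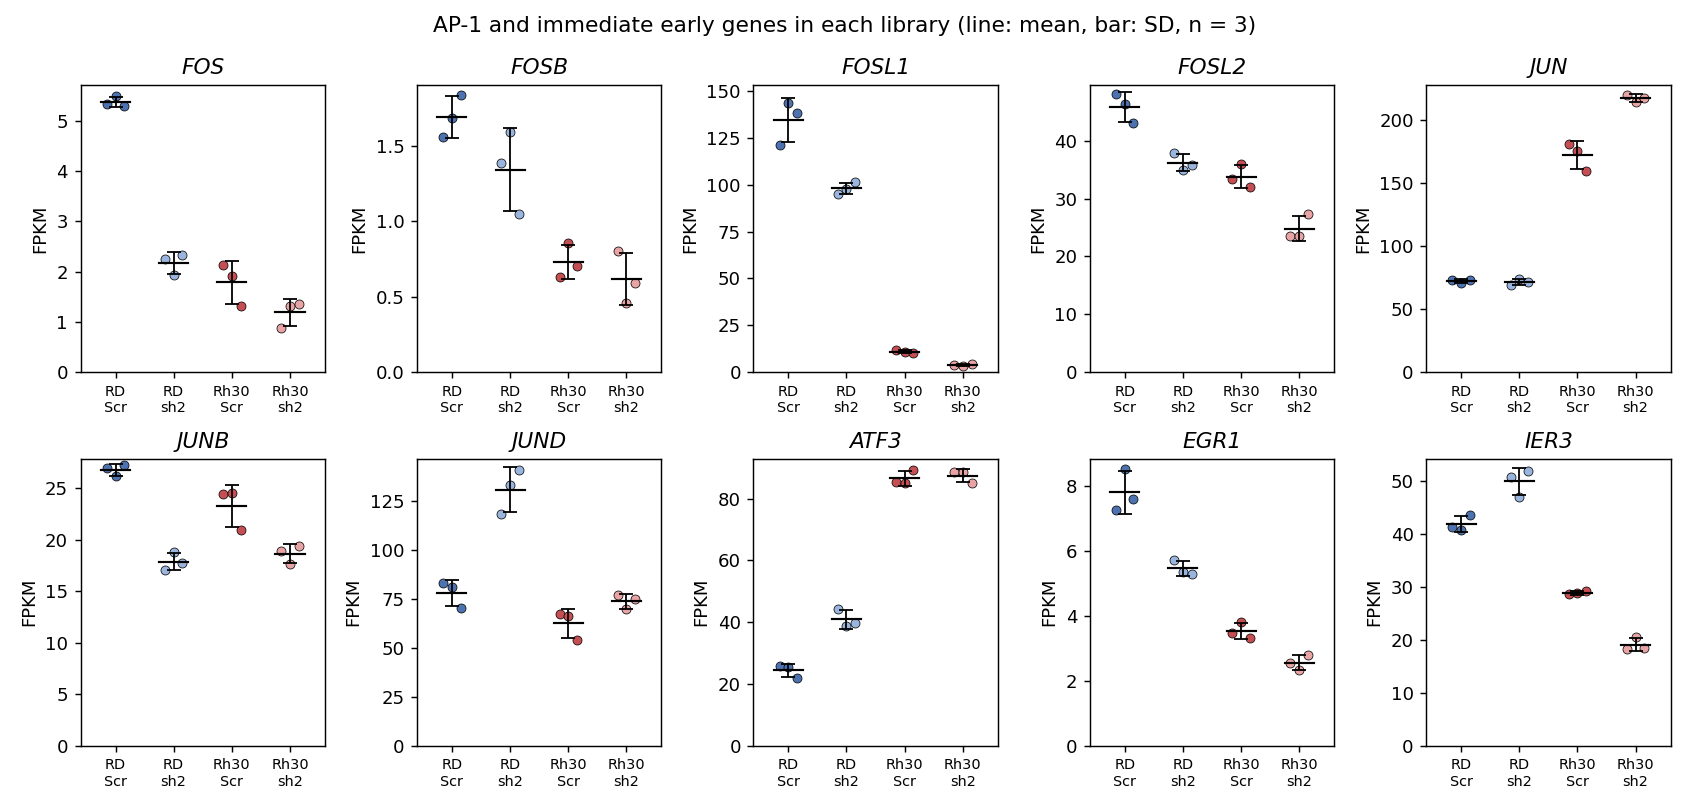
FPKM of each of the 10 genes (vertical axes) in each of the 12 libraries, points being libraries, horizontal lines group means and error bars SD (n = 3), with Scr for Scramble and sh2 for KDM3A-sh2. FOSL1 separates the lines the most, from 3.46 to 4.45 FPKM in Rh30 KDM3A-sh2 up to 121 to 144 in RD Scramble, and ATF3 and JUN are the genes that are higher in Rh30.

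FOS (ENSG00000170345, chr14:75278774-75282230, plus strand) encodes the founding member of its family, whose mRNA is short-lived and low in unstimulated cells. It was at 5.35, 5.49 and 5.31 FPKM in RD Scramble and at 2.25, 1.93 and 2.34 FPKM in RD KDM3A-sh2. Every control library lay above every knockdown library, and the log2 fold change was -1.01 ± 0.095 (SE, adjusted p = 0.0002946). In Rh30 it was at 2.13, 1.92 and 1.31 FPKM with Scramble and at 0.882, 1.32 and 1.36 FPKM with KDM3A-sh2. These groups overlapped, through the third control library, and the change of -0.34 (95% interval -0.77 to 0.078, adjusted p = 0.1922) did not pass. The effects of the lines differed by 0.67 (Rh30 minus RD, adjusted p = 0.01971), but with a pseudocount of 0.1 in place of 1 that difference no longer passed (adjusted p = 0.08854).

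FOSB (ENSG00000125740, chr19:45467995-45475179, plus strand), the paralog of FOS, was the lowest of the 10. It was at 1.56, 1.69 and 1.84 FPKM in RD Scramble and at 1.39, 1.59 and 1.05 FPKM in RD KDM3A-sh2, groups that overlap (log2 fold change -0.21, 95% interval -0.54 to 0.13, adjusted p = 0.286). In Rh30 its libraries lay between 0.456 and 0.856 FPKM, below the mean of 1 FPKM needed to be tested. Its interval overlaps on the opposite strand the repair gene ERCC1, which was at 67.0 to 197.2 FPKM, so reads counted without regard to strand could add to it. Only whole gene intervals were compared, and whether the exons overlap was not checked. The libraries were directional, but whether counting used the strand is not given in the sources used here.

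FOSL1 (ENSG00000175592, chr11:65892049-65900573, minus strand) encodes Fra-1, a member whose transcript follows sustained Ras and ERK activity in many tumor cells. In RD Scramble it was at 121, 144 and 138 FPKM, and in RD KDM3A-sh2 at 95.2, 97.9 and 101 FPKM. In Rh30 Scramble it was at 11.9, 10.7 and 10.1 FPKM, and in Rh30 KDM3A-sh2 at 3.99, 3.46 and 4.45 FPKM. All 4 groups were apart from one another, RD above Rh30 and control above knockdown in each. The log2 fold change was -0.45 ± 0.066 (SE, adjusted p = 0.001961) in RD and -1.26 ± 0.10 (adjusted p = 0.0004053) in Rh30. The relative drop was larger in Rh30 (log2 difference, Rh30 minus RD, -0.81, adjusted p = 0.000652), whereas in plain FPKM the drop was larger in RD, by 29.5 FPKM (linear model per gene on unlogged FPKM, adjusted p = 0.01452). Of all 10 genes it was the one with the widest gap between the lines, with a log2 difference between the Scramble groups of -3.51 ± 0.084 (Rh30 minus RD, adjusted p = 7.77e-08).

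FOSL2 (ENSG00000075426, chr2:28392448-28417312, plus strand), which encodes Fra-2, was the steadiest of the FOS family across the lines. It was at 48.1, 46.3 and 43.1 FPKM in RD Scramble, and at 37.9, 35.0 and 35.8 FPKM in RD KDM3A-sh2. In Rh30 it went from 33.3, 36.0 and 32.1 FPKM to 23.5, 23.6 and 27.3 FPKM. The control was above the knockdown in each line without overlap, and only the ranges of RD KDM3A-sh2 and Rh30 Scramble ran into each other. The log2 fold change was -0.33 ± 0.056 (SE, adjusted p = 0.003693) in RD and -0.43 ± 0.076 (adjusted p = 0.007483) in Rh30. The lines did not differ in this by the test (-0.10, 95% interval -0.32 to 0.11, adjusted p = 0.4752). The summed FPKM of the 4 FOS family genes was 187.4 ± 10.5 (SD, n = 3) in RD Scramble and 137.9 ± 2.28 in RD KDM3A-sh2, and for Rh30 the sums were 47.2 ± 2.74 and 30.6 ± 2.73.

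JUN (ENSG00000177606, chr1:58780788-58784327, minus strand), the main activating partner of FOS proteins, moved in Rh30. It was at 181, 175 and 159 FPKM in Rh30 Scramble and at 219.7, 214 and 217 FPKM in Rh30 KDM3A-sh2, so every knockdown library exceeded every control. In RD it was at 72.9, 70.5 and 73.1 FPKM with Scramble and at 69.2, 73.6 and 71.3 FPKM with KDM3A-sh2, groups that overlap. The log2 fold change was 0.34 ± 0.051 (SE, adjusted p = 0.004562) in Rh30 and -0.016 (95% interval -0.11 to 0.078, adjusted p = 0.7779) in RD. The difference of 0.35 between the lines passed the test (adjusted p = 0.002201).

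JUNB (ENSG00000171223, chr19:12791496-12793315, plus strand) encodes a JUN protein that often opposes JUN in proliferation. In RD it was at 26.9, 26.1 and 27.2 FPKM with Scramble and at 17.1, 18.8 and 17.8 FPKM with KDM3A-sh2, with a log2 fold change of -0.56 ± 0.053 (SE, adjusted p = 0.0003054). In Rh30 it was at 24.4, 24.5 and 20.9 FPKM with Scramble and at 18.9, 17.6 and 19.4 FPKM with KDM3A-sh2, again without overlap. The Rh30 log2 fold change of -0.30 passed with adjusted p = 0.02699. That call was lost on leaving out either of Scramble replicates 1 and 2 (adjusted p = 0.08362 and 0.07727) or any of KDM3A-sh2 replicates 1, 2 and 3 (0.06926, 0.0832 and 0.05043). JUNB shares its interval with HOOK2 on the opposite strand. HOOK2 went from 28.4 to 39.1 FPKM in Rh30 (adjusted p = 0.04771), the direction opposite to JUNB, and its log2 fold change in RD was -0.29 (adjusted p = 0.07732).

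JUND (ENSG00000130522, chr19:18279760-18281622, minus strand), the JUN gene that is made steadily in resting cells, moved opposite to JUNB in RD. It was at 83.0, 80.8 and 70.2 FPKM in RD Scramble and at 118, 133 and 141 FPKM in RD KDM3A-sh2, with no overlap and a log2 fold change of 0.74 ± 0.085 (SE, adjusted p = 0.0006834). In Rh30 it was at 67.3, 66.3 and 54.0 FPKM with Scramble and at 77.1, 69.6 and 74.9 FPKM with KDM3A-sh2. These Rh30 groups did not overlap either, but the change of 0.24 (95% interval 0.028 to 0.46, adjusted p = 0.08812) did not pass. The difference between the lines was -0.49 (adjusted p = 0.01996). JUND went from 44.0% to 59.4% of the JUN family FPKM in RD, while in Rh30 it was 24.2% and 23.9%.

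The summed FPKM of all 7 FOS and JUN genes, which was not tested, was 364.4 ± 9.10 in RD Scramble and 357.8 ± 15.05 in RD KDM3A-sh2 (SD, n = 3), a difference smaller than the spread between libraries. In Rh30 it was 304.9 ± 23.1 with Scramble and 340.0 ± 8.82 with KDM3A-sh2. The JUN family alone summed to 176.9 ± 6.11 and 219.9 ± 13.6 in RD Scramble and KDM3A-sh2, and to 257.7 ± 20.6 and 309.4 ± 7.56 in the same groups of Rh30, so the FOS family sum was lower and the JUN family sum higher with KDM3A-sh2 in both lines. In RD the JUN family sum moved with JUND, and in Rh30 chiefly with JUN.

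**Figure D3:**
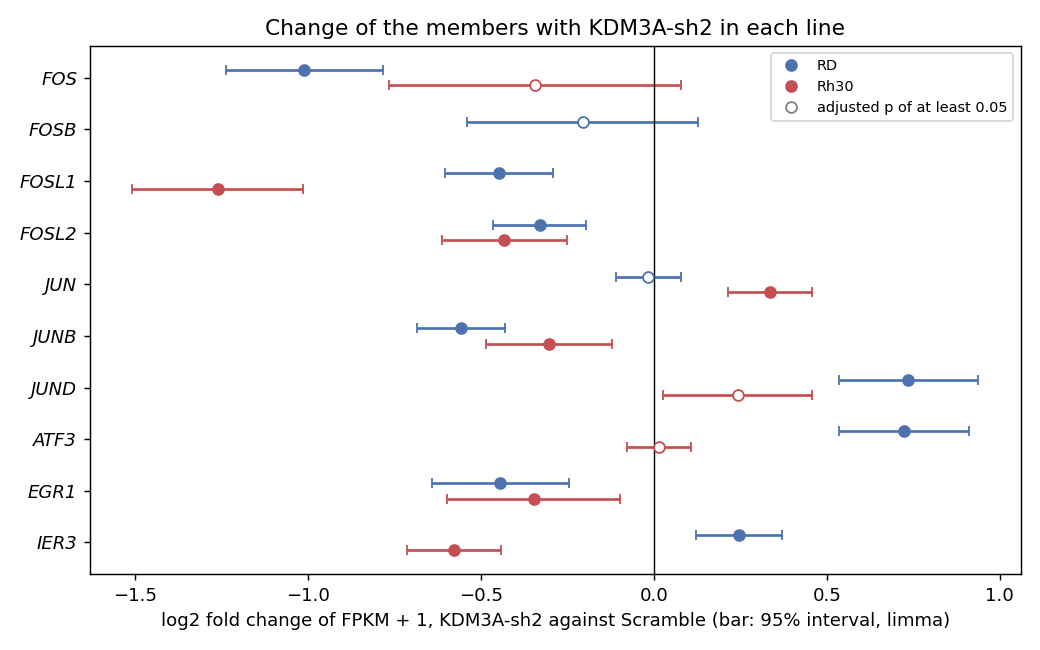
Log2 fold change of FPKM + 1 with KDM3A-sh2 against Scramble (horizontal axis) for each gene in RD and Rh30, points with 95% intervals from limma, open where the adjusted p was at least 0.05. FOSL1 (-0.45 in RD, -1.26 in Rh30) and FOSL2 lie to the left in both lines, IER3 lies on opposite sides (0.25 in RD, -0.58 in Rh30), and FOSB has no point in Rh30 because it was not tested there.

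ATF3 (ENSG00000162772, chr1:212565334-212620777, plus strand) pairs with JUN proteins and belongs both to AP-1 and to the cell's stress response. It was at 25.8, 25.3 and 22.1 FPKM in RD Scramble and at 44.4, 38.7 and 39.6 FPKM in RD KDM3A-sh2. Rh30 held more of it from the start, 85.3, 85.1 and 89.2 FPKM with Scramble, and stood at 88.5, 88.7 and 85.0 FPKM with KDM3A-sh2. The RD groups were apart and the Rh30 groups overlapped. The log2 fold change was 0.72 ± 0.079 (SE, adjusted p = 0.0005491) in RD and 0.015 (95% interval -0.077 to 0.11, adjusted p = 0.8008) in Rh30, and the lines differed by -0.71 (adjusted p = 0.0002304).

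EGR1 (ENSG00000120738, chr5:138465490-138469315, plus strand) is a classic readout of SRF and ERK. It was low in all groups, at 7.27, 8.54 and 7.62 FPKM in RD Scramble and 5.73, 5.37 and 5.31 FPKM in RD KDM3A-sh2. For Rh30 the values were 3.48, 3.81 and 3.32 FPKM with Scramble and 2.55, 2.34 and 2.80 FPKM with KDM3A-sh2. The 4 groups did not overlap, in the order RD Scramble, RD KDM3A-sh2, Rh30 Scramble, Rh30 KDM3A-sh2. The log2 fold change was -0.44 ± 0.084 (SE, adjusted p = 0.005668) in RD and -0.35 ± 0.11 (adjusted p = 0.04855) in Rh30. The Rh30 call was lost when any 1 of the 6 libraries was left out, with adjusted p from 0.06351 (without KDM3A-sh2 replicate 3) to 0.1333 (without KDM3A-sh2 replicate 2), and in between without KDM3A-sh2 replicate 1 or Scramble replicates 1, 2 and 3. In limma with no filter on low values (adjusted p = 0.09618) or with a replicate block (0.1175) the Rh30 call was lost too. The effects of the lines differed by 0.097 (adjusted p = 0.5843).

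IER3 (ENSG00000137331, chr6:30743199-30744554, minus strand), also known as IEX-1, was the one gene of the 10 called in both lines in opposite directions. In RD it rose from 41.2, 40.8 and 43.6 FPKM to 50.8, 47.0 and 51.9 FPKM. In Rh30 it fell from 28.6, 28.8 and 29.3 FPKM to 18.3, 20.4 and 18.4 FPKM. The 4 groups did not overlap, and the lines were farther apart with KDM3A-sh2 than with Scramble. The log2 fold change was 0.25 ± 0.053 (SE, adjusted p = 0.009468) in RD and -0.58 ± 0.057 (adjusted p = 0.0008472) in Rh30, and the difference was -0.82 ± 0.076 (adjusted p = 2.333e-05). Its antisense gene IER3-AS1 was at 1.64 to 4.34 FPKM.

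The effect of KDM3A-sh2 thus differed between the lines for 6 of the 10 genes (2 more positive in Rh30, FOS and JUN, and 4 more negative, FOSL1, JUND, ATF3 and IER3, on the log2 scale), against 27.9% of 18532 genes tested, 14.4% more positive and 13.5% more negative. Of those calls 51.7% were positive, or 40.6% after rescaling each library to the same summed FPKM. For FOSB, FOSL2, JUNB and EGR1 no difference passed. The interval for JUNB was 0.05 to 0.46 (adjusted p = 0.06386).

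In the order of levels over the 4 groups, FOSL1, EGR1 and IER3 had every neighbouring group apart. FOS had RD Scramble on top, with the other 3 groups overlapping in turn. JUND had RD KDM3A-sh2 on top and overlapping ranges for the next, RD Scramble and Rh30 KDM3A-sh2. For JUNB the Scramble groups were above the KDM3A-sh2 groups, which overlapped each other. For JUN both Rh30 groups were above RD, whose 2 groups overlapped. For ATF3 and FOSB the lines were apart and the shRNA groups overlapped within Rh30, and for FOSB within RD too.

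Among 10799 protein-coding genes averaging 5 FPKM or more, those whose log2(FPKM + 1) ran closest to FOSL1 over the 12 libraries were TUBB6 (Pearson r = 0.999), TNS3 (0.9986) and MAP2K1 (0.9985). For JUN they were SAMD11 (0.9991), GP6 (0.9986) and SOX8 (0.9986), and for EGR1 RAC3 (0.9909), ARHGEF10 (0.9907) and PDIA4 (0.9905). The 12 libraries fall into 2 lines, and these values chiefly describe the gap between them, shared by 13690 genes.

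The genes around AP-1 were taken from 7 lists (130 genes in all), and the counts are read beside the percentages of all genes given above. The lists were chosen with earlier results of these data known, so a count above those percentages is a description only. The ERK feedback genes encode dual-specificity phosphatases, Sprouty and SPRED inhibitors and other transcripts that follow ERK output. In Rh30 11 of 12 fell and none rose, with a median log2 fold change of -0.514, and in RD 6 rose and 3 fell, with a median of 0.086. SPRY4, an inhibitor of receptor tyrosine kinase signaling, rose from 56.3 to 89.4 FPKM in RD (adjusted p = 5.08e-05, log2 fold change 0.66) and fell from 25.1 to 13.4 FPKM in Rh30 (-0.86, adjusted p = 0.0003952). DUSP5, a nuclear phosphatase of ERK, fell from 32.4 to 23.1 FPKM in RD (adjusted p = 0.0006166) and from 4.73 to 2.74 FPKM in Rh30 (adjusted p = 0.004855). ETV4, an ETS factor downstream of ERK, fell from 55.1 to 26.4 FPKM in Rh30 (adjusted p = 0.0001971). It rose from 112.6 to 150 FPKM in RD (adjusted p = 0.0002373). The effect differed between the lines for 9 of the 12, all more negative in Rh30, as it did for 13.5% of all genes tested. Of the genes examined, FOSL1, JUND, ATF3 and IER3 were more negative in Rh30 too on the log2 scale. FOS (0.67) and JUN (0.35) were more positive there, and for EGR1 no difference passed (limma, adjusted p = 0.5843).

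**Figure D4:**
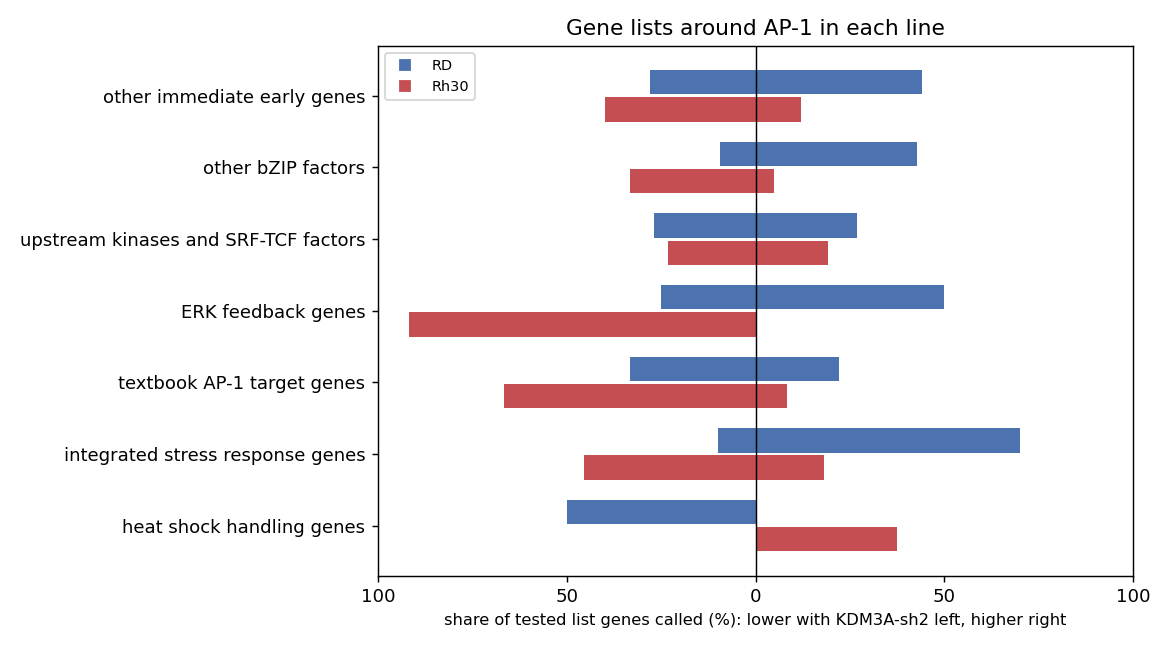
Percent of the tested genes of each of the 7 lists called lower (to the left) and higher (to the right) with KDM3A-sh2 in RD and in Rh30 (horizontal axis). ERK feedback genes had 11 of 12 called lower in Rh30 and 6 of 12 called higher in RD.

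Kinases upstream of AP-1 and the SRF and ternary complex factors were split, with 7 higher and 7 lower of 26 in RD and 5 higher and 6 lower in Rh30. MAP2K7, a kinase that activates JNK, rose in both lines, from 25.7 to 41.2 FPKM in RD (adjusted p = 0.0004411) and from 18.0 to 27.5 FPKM in Rh30 (adjusted p = 0.00257). MAP2K1, which encodes the ERK kinase MEK1, fell from 78.1 to 49.2 FPKM in Rh30 (adjusted p = 0.0001954) and from 288.6 to 253.1 FPKM in RD (adjusted p = 0.005484). ELK4, a ternary complex factor, fell from 14.4 to 9.25 FPKM in RD (adjusted p = 0.01494) and from 22.2 to 15.6 FPKM in Rh30 (adjusted p = 0.003529). The ELK4 call in RD was lost in the study's kind of test, which fits each gene alone (adjusted p = 0.09265 on unlogged FPKM and 0.06831 on log2(FPKM + 1)). The Rh30 count of 11 became 7 without Scramble replicate 1 or KDM3A-sh2 replicate 2.

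Of the other immediate early genes tested, 11 were higher and 7 lower of 25 in RD, and 3 were higher and 10 lower of 25 in Rh30. RHOB, a small GTPase, rose from 22.4 to 38.0 FPKM in RD (adjusted p = 0.0001039), and IER5L fell from 9.92 to 5.51 FPKM (adjusted p = 0.001005). In Rh30 CYR61, a matricellular protein also named CCN1, fell from 118.3 to 34.1 FPKM (adjusted p = 1.394e-05, log2 fold change -1.76). KLF4 rose from 5.74 to 8.81 FPKM in Rh30 (adjusted p = 0.005225) and from 20.2 to 26.0 FPKM in RD (adjusted p = 0.001822). The drop in Rh30 of FOSL1 lay between those of EGR1 and CYR61.

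Other basic leucine zipper factors, possible partners or competitors of AP-1, had 9 higher and 2 lower of 21 in RD and 1 higher and 7 lower of 21 in Rh30. In RD the cyclic AMP factor CREM rose from 40.9 to 72.5 FPKM (adjusted p = 9.999e-05), and CEBPD fell from 14.2 to 10.9 FPKM (adjusted p = 0.02963). CREM fell from 35.6 to 30.2 FPKM in Rh30 (limma, adjusted p = 0.04492). The CEBPD call was lost without RD KDM3A-sh2 replicate 1 (adjusted p = 0.07269), Scramble replicate 1 (0.08822) or Scramble replicate 2 (0.09075). JDP2, a repressor that pairs with JUN, fell from 8.08 to 4.50 FPKM in Rh30 (adjusted p = 0.009148) and rose from 12.1 to 15.7 FPKM in RD (adjusted p = 0.02839). MAF rose from 6.31 to 8.69 FPKM in Rh30 (adjusted p = 0.01563) and from 7.71 to 12.2 FPKM in RD (adjusted p = 0.0009243). The MAF call in Rh30 was lost without Rh30 KDM3A-sh2 replicate 1 (adjusted p = 0.05826) or 3 (0.05093). The RD count of 11 became 7 without Scramble replicate 2, and the Rh30 count of 8 became 5 or 4 without KDM3A-sh2 replicate 1 or 3.

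Textbook AP-1 target genes had 4 higher and 6 lower of 18 tested in RD and 1 higher and 8 lower of 12 tested in Rh30. The lower counts include MMP9 in RD (1.92 to 0.185 FPKM) and MMP1 in Rh30 (1.93 to 0.0773 FPKM), metalloproteinases that were tested only through the Scramble group, where they are high, and so were bound to differ. CD44, an adhesion receptor, went from 0.0505 to 1.17 FPKM in Rh30 and was too low to be tested there. CCND1, which encodes cyclin D1, fell from 134.1 to 54.1 FPKM in Rh30 (adjusted p = 5.417e-05, log2 fold change -1.29), and HMOX1, a heme-degrading enzyme, rose from 13.8 to 22.7 FPKM (adjusted p = 0.0002932). In RD the EGF receptor ligand HBEGF rose from 21.6 to 50.2 FPKM (adjusted p = 1.955e-05, log2 fold change 1.18), and the cytokine IL6 fell from 6.61 to 3.99 FPKM (adjusted p = 0.00293). HBEGF fell from 10.7 to 5.33 FPKM in Rh30 (limma, adjusted p = 0.0004006).

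Integrated stress response genes, the list closest to ATF3 in function, had 7 higher and 1 lower of 10 in RD (median 0.419) and 2 higher and 5 lower of 11 in Rh30 (median -0.217). GDF15, a stress-induced secreted factor, rose from 8.81 to 41.9 FPKM in RD (adjusted p = 1.236e-05, log2 fold change 2.13). It fell from 26.6 to 16.3 FPKM in Rh30 (adjusted p = 0.0009397). DDIT4 fell from 29.99 to 22.5 FPKM in RD (adjusted p = 0.002689) and from 50.8 to 30.9 FPKM in Rh30 (adjusted p = 0.0003307). In Rh30 GADD45B fell from 21.3 to 4.54 FPKM (adjusted p = 0.0001035, log2 fold change -2.01). The pseudokinase TRIB3 rose from 11.9 to 15.1 FPKM in Rh30 (adjusted p = 0.007654) and from 6.56 to 9.59 FPKM in RD (adjusted p = 0.002697). The lower count in Rh30 includes CHAC1 (1.53 to 0.851 FPKM, adjusted p = 0.04715), which was tested only through its level in Scramble. Of the genes that handle heat shock, 0 were higher and 4 lower of 8 in RD (median -0.177). In Rh30 3 were higher and 0 lower of 8 (median 0.0818). Among all genes tested 21.6% were higher and 19.5% lower in RD, and 15.3% higher and 13.2% lower in Rh30. HSP90AA1 fell from 943.9 to 701.4 FPKM in RD (adjusted p = 0.000201), and HSPH1 rose from 223.3 to 294.6 FPKM in Rh30 (adjusted p = 0.0007172). Between the lines the effect differed for 8 of 11 stress response genes, all more negative in Rh30 as for ATF3, and for 5 of 8 heat shock genes, all more positive in Rh30. Among all genes tested that difference passed for 27.9%, with 14.4% more positive and 13.5% more negative in Rh30.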

How the data were processed

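The authors deposited 1 table of FPKM values for the 12 libraries, made, per the labels, from directional mRNA libraries with GSNAP on GRCh38, SAMtools and Cufflinks, so counts of reads are not known. Of 66095 entries, 120 were left out because their identifier was repeated (117 identifiers), and 17 genes held the placeholder 999999999 in some library (1 to 8 genes per library), none of them a gene examined here. No sample column went unused. Samples were grouped by line and shRNA. Log2(FPKM + 1) values were tested, for genes averaging 1 FPKM or more over the libraries fitted, with limma 3.58.1 (R 4.3.3, trended empirical Bayes), once per line, between the Scramble groups, and with an interaction over 12 libraries. Benjamini-Hochberg adjustment ran over all genes tested, with a threshold of 0.05. The study itself names ANOVA on FPKM, which was run as an alternative. Tests were checked on simulated data. Alternatives covered pseudocount, filter, scaling, test, pooled spread, replicate block and each library left out.

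The members and lists were chosen with earlier results of these data known. From each list, the called gene with the largest rise and that with the largest drop was named per knockdown comparison, given an average of 5 FPKM or more and groups that did not overlap. Other list genes given with values (MMP9, MMP1, CD44 and CHAC1) were chosen after their values were seen. The same holds for values of a named gene in the line where the rule did not name it, such as SPRY4 in Rh30. Where no such values are given, a named gene was not called or not tested in the other line. Gene positions are from GENCODE 29, and promoters from RefSeq (GRCh38.p14). Figures were drawn with matplotlib 3.10.9 in Python 3.11.15 (pandas 2.3.3, NumPy 2.4.6). FPKM divides by the mapped total of each library, and summed FPKM ranged from 1198300 to 1379197.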

Additional observations from a re-analysis of the deposited data

Results flagged for a closer look

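For 6 genes the change with KDM3A-sh2 differed between the lines by the interaction test in limma, and they are given as Rh30 minus RD on the log2(FPKM + 1) scale. FOS differed by 0.67, having fallen in RD while its Rh30 groups overlapped. FOSL1 differed by -0.81, having fallen in both lines. JUN differed by 0.35, having risen in Rh30 while its RD groups overlapped. JUND differed by -0.49, having risen in RD without passing in Rh30. ATF3 differed by -0.71, with a rise in RD and overlapping groups in Rh30. IER3 differed by -0.82, with a rise in RD and a drop in Rh30. The 2 lines also differ in subtype, medium, starting level and the drop of KDM3A itself, and the part these play was not tested. KDM3A differed by 0.37 (limma interaction, adjusted p = 0.03875), having fallen less in Rh30. That call was lost in 12 of 21 alternatives.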

How the results depend on the processing

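No pairing by replicate number, taken from the sample titles, was seen. After each group's mean log2(FPKM + 1) was subtracted from each gene, the deviations of same-numbered libraries were compared between groups. These deviations correlated between -0.139 and 0.074 over 13389 genes. With the replicate number as a block, 8, 4, 6 and 9 of the genes examined passed in RD, in Rh30, in the difference of effects and between the Scramble groups, and 6266, 3422, 4787 and 13550 genes overall. Leaving out 1 library gave 8 genes examined in RD each time, 4 to 5 in Rh30, 6 each time for the difference and 8 to 10 between the Scramble groups, and overall 5989 to 6365, 3216 to 4073, 4405 to 4761 and 12918 to 13246 genes. The count of 5069 genes called in Rh30 became 3216 without Rh30 KDM3A-sh2 replicate 1. Signs changed where the change was near 0, for JUN in RD after rescaling to the same summed FPKM (0.018, adjusted p = 0.7752) and without RD KDM3A-sh2 replicate 1 (0.0063, adjusted p = 0.9246, the other libraries left out giving down to -0.038), and for ATF3 in Rh30 after that rescaling (-0.010, adjusted p = 0.8684). On unlogged FPKM the difference of effects was 29.5 FPKM for FOSL1 (adjusted p = 0.01452) and 0.60 FPKM for FOSL2 (adjusted p = 0.8802), opposite in sign to the log2 scale, and for EGR1 it passed (1.37 FPKM, adjusted p = 0.04977). For FOSL1 and FOSL2 the unit sets the sign, and for EGR1 the call. Between the Scramble groups JUNB (adjusted p = 0.04017) no longer passed without RD Scramble replicate 1, 2 or 3 or Rh30 Scramble replicate 3 (0.09141, 0.07058, 0.1026 and 0.06666), and JUND (0.0248) without RD Scramble replicate 1 or 2 (0.08101 and 0.07607). The cause was not tested. Rescaling moved the summed FPKM of the FOS and JUN genes to 380.1 in RD Scramble, 382.3 in RD KDM3A-sh2 and 322.8 in Rh30 KDM3A-sh2, shifted the median of all genes between the Scramble groups by -0.103, and took the share of higher calls in the difference of effects from 51.7% to 40.6%. In all, 624 of the single-gene values for the genes examined kept direction and call, 33 lost the call, 1 gained it and 5 changed sign. Depth in reads is unknown, and at FOS, FOSB and EGR1 levels it limits what can be seen.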

Other observations

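A 7-letter word, TGAAGCA, which came from earlier results of these data, was looked for in the longest annotated 3′ UTR of each gene. None of the 10 genes examined held it, whereas 19.3% of 12511 genes tested in RD and 19.5% of 11983 in Rh30 did. Genes with the word had a median log2 fold change of -0.058 in RD and -0.059 in Rh30, and genes without it 0.038 and 0.045. Of the genes with the word 30.4% were called lower in RD and 26.4% in Rh30, against 20.5% and 13.8% of those without it. As the word was chosen on these libraries, these shares are a description. A longer 3′ UTR has more places for any word, and length was not taken into account. No other word was compared here.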
